A study of Populus tremula x Populus alba with 20 samples.

Results

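The 150 genes described here had almost no transcript in the apical buds of short-day-grown poplars and a measurable level after 2 weeks of cold. They were chosen by their values. Levels of the 31823 genes in the count tables were expressed as CPM, the count over the library total times 1e+06. A gene qualified when its mean over the 10 libraries before cold was under 0.5 CPM and its mean over the 10 libraries after cold was at least 4 times as high. The range of the 8 overexpressor libraries and that of the 2 wild-type libraries also had to overlap after cold. Of 6688 genes under the first limit, 744 met every condition, and the 150 with the highest mean after cold were kept. The difference between harvests and the closeness of overexpressors to wild type after cold are therefore given as descriptions, with no test.

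The libraries came from hybrid poplar, Populus tremula x Populus alba, of the INRA clone 717 1B4, an aspen hybrid used for transformation. Buds were collected from wild-type plants (WT) and from 4 lines that overexpress a TEMPRANILLO-like protein. The lines TEML1_1ox and TEML1_2ox carry TEML1ox, and the lines TEML2_1ox and TEML2_2ox carry TEML2ox; the promoter of the transgenes is not given in the sources used here. All plants had spent 8 weeks in short days, and those of the first harvest, SD8, were sampled at that point. Those of the second harvest, CH2, spent 2 further weeks in short days at 4 °C, and both harvests were taken at ZT7, that is 7 h after lights on. Every line and WT had 2 replicates per harvest, each a pool from several plants or buds, so WT at SD8 and WT at CH2 were the controls with 2 libraries each. Plants of all groups, controls included, therefore carried the short-day treatment, and a group kept at warm temperature for the 2 further weeks was not analysed here. SD8 and CH2 also came as separate count tables, so cold, 2 more weeks of short days and any difference in handling cannot be told apart.

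In poplar, short days stop growth and lead to a closed bud that enters dormancy, and a long period of cold then restores the ability to grow. Cold is known to change the transcription of many plant genes, both through rapid cold-response factors and through slower changes in chromatin and hormone pathways. TEMPRANILLO proteins are DNA-binding repressors known from Arabidopsis, where they delay flowering. The count tables do not pair identifiers with gene names, and no annotation was used here. The role of each gene, the levels of the TEML transgenes and the bud's cell type markers were therefore not examined, and genes are given by their identifiers in the tables.

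Library totals ran from 35779227 to 39352645 counts, so that 1 CPM at CH2 was worth 38.4 counts on average. At this depth, 6 of the 150 genes had 0 counts in all 10 SD8 libraries, and the other 144 had at least 1 count. The word silence thus fits 6 genes as far as counts show, and the set as a whole was near silence before cold. Between 88 and 106 of the 150 were detected in each SD8 library, against 147 to 150 in each CH2 library. In detail, 37 genes were detected in every SD8 library and 34 in at most 3 of them, while 143 were detected in every CH2 library. A count in such bulk samples cannot tell more cells with a transcript from more RNA per cell.

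The mean level at SD8 had a median of 0.0941 CPM over the 150 genes and reached 0.498 CPM. At CH2 the mean level ran from 0.348 to 39.1 CPM, with a median of 0.901 CPM and quartiles of 0.550 and 1.65 CPM. Most of the genes therefore stayed at a low level after cold: 81 were under 1 CPM, 29 reached 2 CPM and 4 reached 10 CPM. The ratio of the means, among the 144 genes with SD8 counts, ran from 4.13 to 197 with a median of 9.45. It was at least 10 in 69 genes, at least 20 in 33 and at least 100 in 5.

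**Figure D1:**
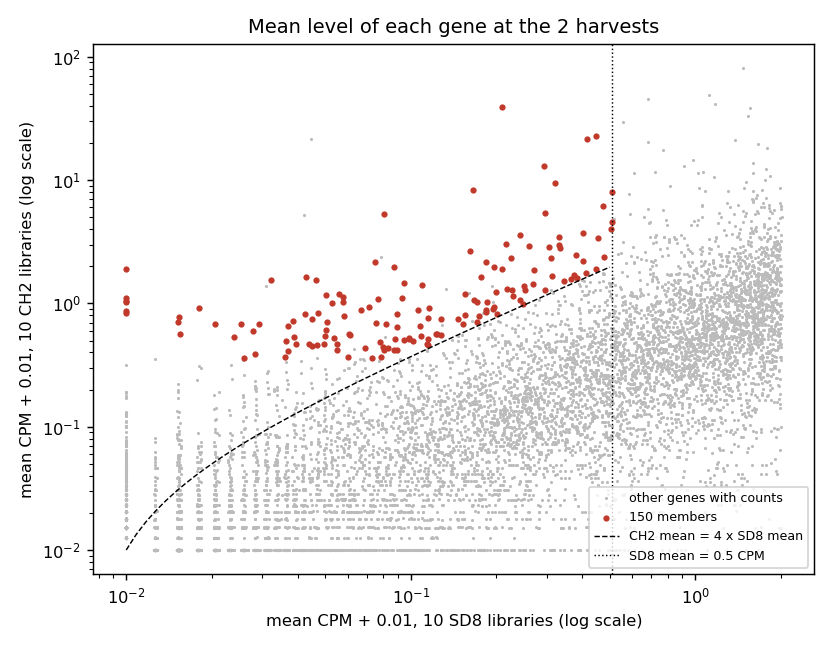
Mean level of each gene at CH2 against its mean level at SD8, in CPM with 0.01 added, both axes logarithmic and each mean over 10 libraries; the 150 genes are red, other genes with counts and an SD8 mean under 2 CPM are grey, and the lines mark the limits of 0.5 CPM and 4 times. The red points lie to the left of the level limit and above the fold line, and the column at the left edge holds the 6 genes at 0 counts in every SD8 library.

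The limits fell in a continuous distribution. The last gene kept had a CH2 mean of 0.348 CPM and the first left out 0.344 CPM. The gene nearest to the SD8 limit had 0.498 CPM, and the next gene that met the other conditions had 0.506 CPM at SD8 and 4.79 CPM at CH2. The lowest ratio kept was 4.13, and the nearest gene under the limit, of those at the level of the set, had 3.96. With each library left out in turn, 83 of the 150 genes met the conditions every time and 67 failed them at least once. Without WT replicate 1 at CH2 116 still met them, and without WT replicate 2 at CH2 127 did. Without any other library it was 143 to 150. With a WT library left out at CH2, the overlap condition rests on a single WT value. The 67 thus include genes far from the level and fold limits, such as PtXaAlbH.14G093700.v5.1, with a ratio of 52.2.

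The gene with the highest mean CPM after cold was PtXaAlbH.15G107500.v5.1; CPM is not scaled by gene length, so the order of genes is one of counts. Its SD8 values ran from 0.0559 to 0.411 CPM with a median of 0.172 CPM, that is 2 to 16 counts per library. At CH2 it had 35.6 and 38.8 CPM in WT, 33.6 and 24.7 in TEML1_1ox, 43.3 and 38.1 in TEML1_2ox, 41.7 and 44.7 in TEML2_1ox, and 50.8 and 40.0 in TEML2_2ox. Every CH2 library lay far above every SD8 library, and the lowest of the CH2 libraries was TEML1_1ox replicate 2. The mean went from 0.199 ± 0.119 to 39.1 ± 7.01 CPM (SD, n = 10), which is the ratio of 197 and the highest of the 144 ratios.

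PtXaAlbH.14G093700.v5.1 came second. Its SD8 values ran from 0.112 to 0.695 CPM with a median of 0.490 CPM. At CH2 it had 19.4 and 20.8 CPM in WT, 21.7 and 14.3 in TEML1_1ox, 23.6 and 23.2 in TEML1_2ox, 24.2 and 26.1 in TEML2_1ox, and 28.7 and 25.7 in TEML2_2ox. The harvests did not overlap, and TEML1_1ox replicate 2 was again the lowest CH2 library. The mean at CH2, 22.8 ± 4.02 CPM, was 52.2 times the SD8 mean of 0.436 ± 0.197 CPM (SD, n = 10). The 3 highest genes held 27.8% of the set's summed CPM at CH2, and the 10 highest held 46.3%.

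PtXaAlbH.07G033100.v5.1 had the highest CH2 mean CPM of the 6 genes with no count at SD8. At CH2 its counts were 117 and 83 in WT, 75 and 65 in TEML1_1ox, 91 and 64 in TEML1_2ox, 59 and 58 in TEML2_1ox, and 67 and 45 in TEML2_2ox. It was therefore absent from the counts of every SD8 library and present in every CH2 library, with its highest count in WT replicate 1. Its CH2 mean was 1.89 ± 0.553 CPM (SD, n = 10). Against a floor of 3 counts over the 10 SD8 libraries, which covers counting error only, that was at least 236-fold higher.

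PtXaAlbH.17G087800.v5.1, the next of these 6, had CH2 counts of 48 and 87 in WT, 75 and 27 in TEML1_1ox, 38 and 20 in TEML1_2ox, 16 and 32 in TEML2_1ox, and 39 and 34 in TEML2_2ox. The replicates of TEML1_1ox were farther apart than the means of any lines. Its CH2 mean of 1.09 ± 0.616 CPM (SD, n = 10) was at least 136-fold higher than the same floor. The other 4 genes of this kind had CH2 means at least 104-fold to 129-fold higher than the floor.

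**Figure D2:**
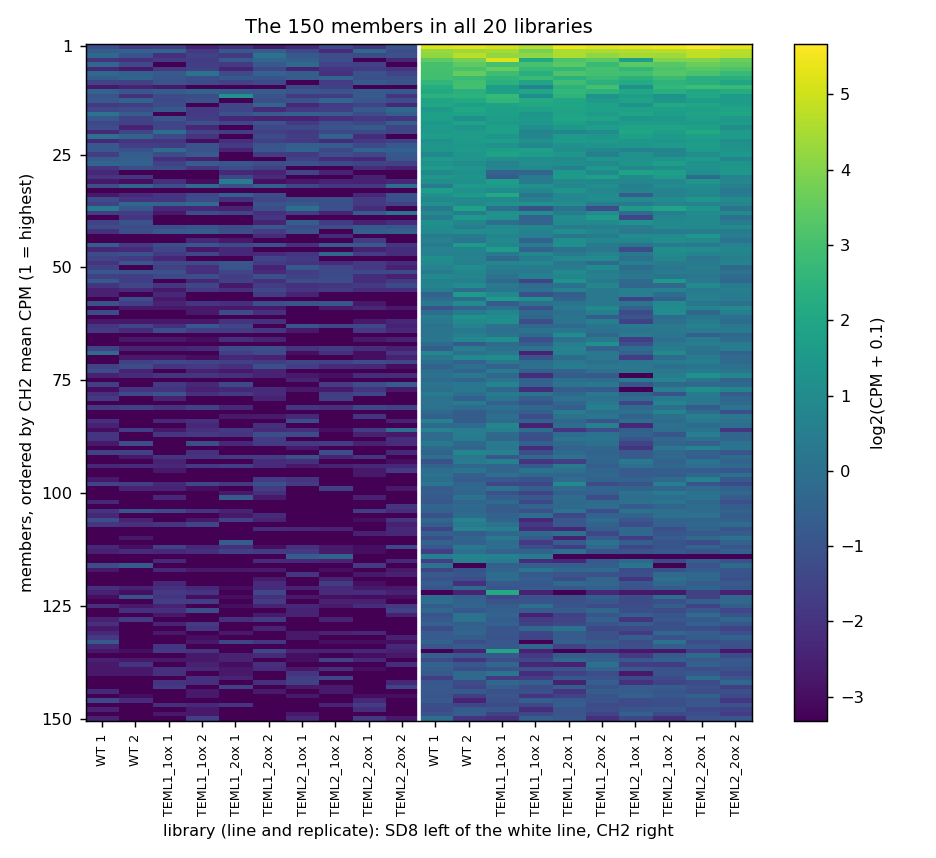
log2(CPM + 0.1) of the 150 genes, in rows by CH2 mean, in each of the 20 libraries, with SD8 left of the white line and CH2 right of it. The dark columns on the left hold the near-silent SD8 values, and the few dark cells on the right are genes at or near 0 in some CH2 libraries, as for PtXaAlbH.09G037500.v5.1, at 0 in 6 of the 10.

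In 104 of the 150 genes every CH2 library was higher than every SD8 library, against 13.0% of the 30466 genes with any count. Since the conditions used these values, nothing is read from that share. Within a genotype, both CH2 replicates were higher than both SD8 replicates in 144 genes in WT (25.3% of all genes with counts), 140 in TEML1_1ox (25.8%), 139 in TEML1_2ox (26.1%), 142 in TEML2_1ox (26.8%) and 145 in TEML2_2ox (26.1%). In 128 genes this held in all 5 genotypes (16.1% of all genes with counts). The remaining 22 had an overlap in at least 1 genotype.

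Per genotype, the median change in log2(CPM + 0.1) was 2.45 in WT, 2.43 in TEML1_1ox, 2.36 in TEML1_2ox, 2.40 in TEML2_1ox and 2.58 in TEML2_2ox. On this scale, which understates the change of low genes, 91 to 113 of the 150 genes were at least 4-fold higher in a given genotype. Lower values at CH2 than at SD8 were rare: 1 gene in WT, 2 in TEML1_2ox, 3 in TEML2_1ox and none in TEML1_1ox or TEML2_2ox.

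The summed CPM of the 150 genes at SD8 was 26.4 and 22.5 in WT, 20.6 and 20.8 in TEML1_1ox, 21.5 and 23.6 in TEML1_2ox, 21.3 and 19.5 in TEML2_1ox, and 18.8 and 20.4 in TEML2_2ox. At CH2 it was 291.7 and 339.7 in WT, 339.7 and 217.5 in TEML1_1ox, 306.1 and 290.4 in TEML1_2ox, 264.1 and 322.9 in TEML2_1ox, and 345.8 and 293.0 in TEML2_2ox. All CH2 sums lay far above all SD8 sums, and at CH2 the replicates of TEML1_1ox were farther apart than any means of the lines. The mean went from 21.5 ± 2.19 to 301 ± 39.6 CPM (SD, n = 10), a ratio of 14.0, and without the 3 highest genes the ratio was 10.6. By genotype the ratio was 12.9 in WT, 13.5 in TEML1_1ox, 13.2 in TEML1_2ox, 14.4 in TEML2_1ox and 16.3 in TEML2_2ox. Scaling by the trimmed mean of M values (TMM), whose factors averaged 1.10 at SD8 and 0.906 at CH2, moved all CH2 levels up by 0.29 on the log2 scale relative to SD8, and the ratio of the sums was then 17.0.

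**Figure D3:**
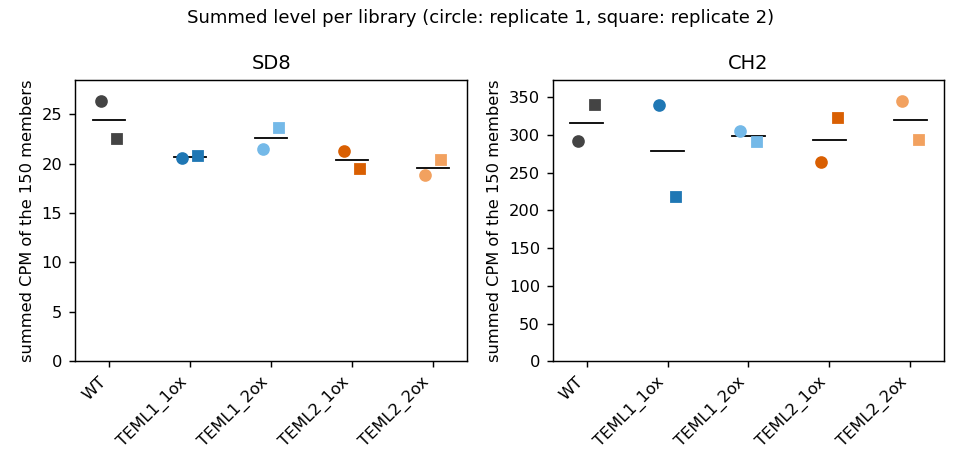
Summed CPM of the 150 genes in each library, for SD8 (left) and CH2 (right), with circles for replicate 1, squares for replicate 2 and a bar at the mean of each genotype; each panel has its own axis from 0. The SD8 sums lie between 18.8 and 26.4 CPM, and the CH2 sums between 217.5 CPM in TEML1_1ox replicate 2 and 345.8 CPM in TEML2_2ox replicate 1.

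The overlap condition removed 45 genes that met the other limits. Of these, 42 were higher in WT than in all overexpressor libraries at CH2 and 3 were higher in the overexpressors. At or above the level of the set there were 17 such genes, 14 of them higher in WT, and the highest had a CH2 mean of 21.5 CPM. Being higher in WT can rest on counts in the WT libraries alone. Being higher in the overexpressors takes counts in every overexpressor library. Whether this bears on the split was not tested. No share over all genes was taken for these counts, so the split is not read as a trait of these genes. An effect of genotype was not tested. Within the 150 genes, the overexpressor mean at CH2 was under the WT mean in 96 and above it in 54. That is 64% under WT, beside 48.6% of the 24364 genes at or above the set's lowest level, and the median log2 ratio was -0.12 beside 0.01. The condition on overlap used the same libraries, so this split has no test.

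At CH2, WT had the highest mean of the 5 genotypes in 45 genes, TEML2_2ox in 30, TEML1_1ox in 26, TEML1_2ox in 25 and TEML2_1ox in 24. The lowest mean was in TEML1_1ox for 51 genes and in TEML2_1ox for 39, against 16 to 25 for each of the others. By single library, TEML1_1ox replicate 2 was the lowest CH2 library for 46 genes and TEML2_1ox replicate 1 for 33, while each of the other 8 was the lowest for 3 to 14. These orders were not counted over all genes, and the overlap condition used the same libraries. They are therefore not read as a trait of the set.

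The genes varied widely between CH2 libraries. For the 143 genes detected in all of them, the highest library was 3.10 times the lowest at the median, and in 14 genes it was at least 10 times the lowest. Among the 69 genes with a CH2 mean of at least 1 CPM, the median was 2.36 times. It was 1.45 times over the 16136 genes of the series with a CH2 mean from 1 to 39.1 CPM. Levels were not matched within that range, and 29 of the 69 reached 2 CPM, so the medians are not compared at like depth. Over those 69 genes, a median of 55.1% of the log2 variance lay between genotypes, beside 60.3% over the 16136 genes. Over the whole set the median was 46.4%. With so few libraries per genotype, a large share lies between genotypes even where they do not differ. These shares are therefore not read as an effect of genotype. The first principal component of the 69 genes with a CH2 mean of at least 1 CPM held 35.8% of their variance at CH2. It set apart TEML1_1ox replicate 2 (-4.66) and TEML2_1ox replicate 1 (-4.65), with the other 8 libraries between -0.36 and 2.73. These libraries are of different lines and constructs, and each stood apart from its own replicate.

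In 22 genes both of these libraries were lower than all other 8 CH2 libraries, against 3.43% of the 29690 genes with counts at CH2. The libraries were singled out from the same values, so the count has no test. The 22 include 5 neighbouring genes, from PtXaAlbH.01G185100.v5.1 to PtXaAlbH.01G185600.v5.1, whose CH2 counts correlated at Pearson r from 0.859 to 0.998. They also include PtXaAlbH.14G038400.v5.1 and PtXaAlbH.14G037500.v5.1 (r = 0.997), so the 22 are not all independent. Relative to each gene's mean, the median of the 22 genes was -1.07 in TEML1_1ox replicate 2 and -1.53 in TEML2_1ox replicate 1 on the log2(CPM + 0.1) scale. For the other 128 genes it was -0.24 and -0.09. What differs between these buds was not tested.

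**Figure D4:**
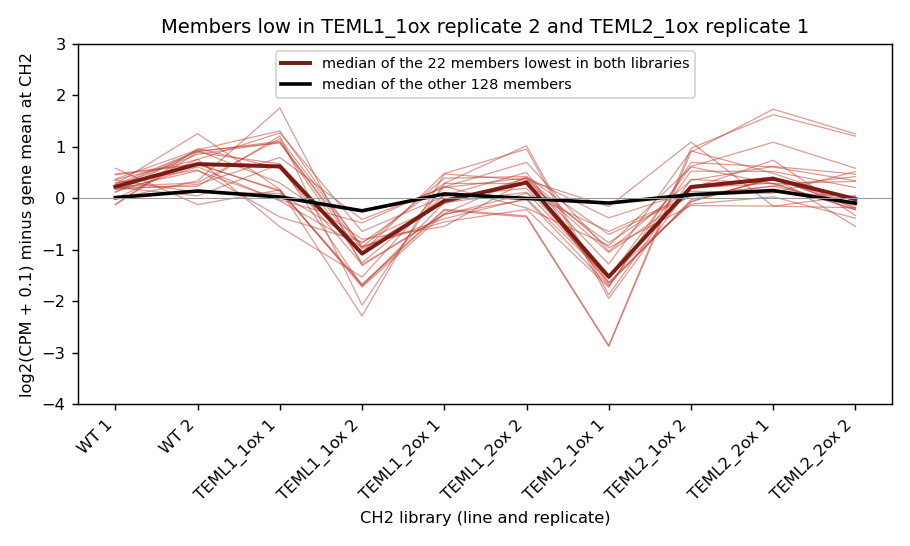
log2(CPM + 0.1) minus the gene's CH2 mean, in the 10 CH2 libraries, for the 22 genes (thin red lines) that were lowest in TEML1_1ox replicate 2 and TEML2_1ox replicate 1, with their median (thick red) and the median of the other 128 genes (black). The red median drops to -1.07 and -1.53 in these libraries, whereas the black median stays between -0.24 and 0.15 in all 10.

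The gene with the highest CPM of the 22, PtXaAlbH.06G134900.v5.1, was named after its values were seen. Its CH2 values were 10.7 and 13.7 CPM in WT, 36.6 and 4.28 in TEML1_1ox, 8.69 and 10.6 in TEML1_2ox, 3.24 and 15.6 in TEML2_1ox, and 15.5 and 12.5 in TEML2_2ox. The highest and the next-to-lowest values were the replicates of TEML1_1ox, so the genotypes overlapped widely. Its SD8 mean was 0.284 ± 0.219 CPM and its CH2 mean 13.1 ± 9.26 CPM (SD, n = 10), a ratio of 46.3.

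A pair of genes owed its place to a single library, and both were named after their values were seen. PtXaAlbH.06G082000.v5.1 had 168 counts in TEML1_1ox replicate 1 at CH2 and 0 to 9 in the other 9 CH2 libraries. PtXaAlbH.06G082100.v5.1 had 148 counts there and 0 to 8 elsewhere. That library held 86.6% of the CH2 counts of the first and 86.5% of the second, and at SD8 both had 0 to 10 counts per library. Their medians were lower at CH2 than at SD8, at 0.0766 and 0.0952 CPM for the first and 0.0644 and 0.0818 CPM for the second.

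Some of the genes were close to each other in the order of the table, which follows the chromosome codes in the identifiers. Allowing 3 rows of distance, 34 of the 150 fell into 12 runs, beside 19 of the 150 genes next in rank. The longest run had 7 genes within 8 rows of chromosome code 1, with CH2 means from 0.456 to 3.38 CPM and SD8 means from 0.0340 to 0.446 CPM. A second run on code 1 had 5 genes within 6 rows, CH2 means from 0.898 to 1.88 CPM, and counts that rose and fell together over the 10 CH2 libraries, with pairwise Pearson r from 0.859 to 0.998. In all, code 1 held 18.7% of the 150 genes beside 11.9% of all genes, code 17 held 8.00% beside 3.86%, code 14 held 8.67% beside 5.28%, and code 8 held 2.00% beside 5.79%. Among genes with counts and an SD8 mean under 0.5 CPM, these codes held 12.3%, 4.78%, 6.02% and 5.31%. The other codes are not listed here. Genes of the runs on code 1 are part of its share, so they are not all separate cases. Of 11175 pairs, 6 had counts correlated at r of at least 0.98 over the CH2 libraries, and these 6 pairs involved 9 genes. Points shared the library depth, and reads of near-identical copies may be split between such genes, so that 9 of the 150 are less certain as separate genes.

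TEML1ox and TEML2ox, and the lines of each, were compared at CH2. The choice of the genes did not use these contrasts, but it did require the 8 overexpressor libraries to overlap WT, and a wider spread among them makes that easier, so the tests are not fully independent of it. In edgeR's quasi-likelihood test with Benjamini-Hochberg adjustment over all genes, 0 of 148 genes tested passed 0.05, against 0.101% of the 25696 genes tested. At an unadjusted p under 0.05 there were 17 genes, or 11.5%, beside 11.0% of all genes. DESeq2 called 1 of the set, against 1.48% of all genes, and limma-voom 0, against 0.109%. With the 5 genotypes fitted as separate groups 1 passed, against 0.774%. The median log2 fold change was -0.03 beside 0.00 over all genes tested.

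The smallest adjusted p belonged to PtXaAlbH.12G036800.v5.1, which did not pass. At CH2 it had 0.893 and 0.359 CPM in TEML1_1ox, 0.919 and 0.341 in TEML1_2ox, 2.80 and 3.69 in TEML2_1ox, and 2.40 and 0.991 in TEML2_2ox, with 1.10 and 3.46 CPM in WT. All 4 TEML1ox libraries were lower than all 4 TEML2ox libraries, and both WT values lay within the TEML2ox range. No TEML1ox library reached the lower WT value, so this gene met the required overlap with WT at CH2 only through TEML2ox. Its contrast between the constructs is therefore not read as a difference. The means were 0.628 ± 0.321 CPM in TEML1ox and 2.47 ± 1.12 CPM in TEML2ox (SD, n = 4 each). The log2 fold change was -1.97 ± 0.47 (SE), with an adjusted p of 0.153 in edgeR and 0.00357 in DESeq2.

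Between the lines of TEML1ox at CH2, 2 of the 148 genes tested passed in edgeR, against 0.0778% of all genes tested. At an unadjusted p under 0.05 there were 24 genes, or 16.2%, beside 17.0% of all genes. DESeq2 called 4 of the set, against 1.63% of all genes, and limma-voom 1, against 0.0662%. PtXaAlbH.09G037500.v5.1 had 54 and 46 counts in TEML1_1ox and 0 in both TEML1_2ox libraries. It had 52 and 57 counts in WT and 0 in all 4 TEML2ox libraries at CH2. At SD8 it was counted in TEML2_1ox alone, with 20 and 23 counts. Whether its pattern over lines changed between harvests was not tested.

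For PtXaAlbH.09G037500.v5.1 the CH2 mean in TEML1_1ox, 1.30 ± 0.168 CPM (SD, n = 2), was at least 33.0-fold higher than the floor of 3 counts over TEML1_2ox, with an adjusted p of 0.0259 in edgeR. This gene met the required overlap with WT at CH2 only through TEML1_1ox, so its call is not read as a difference. PtXaAlbH.17G106100.v5.1 had 0.604 and 0.667 CPM in TEML1_1ox and 2.68 and 1.86 CPM in TEML1_2ox. WT had 1.84 and 2.17 CPM and the TEML2ox libraries 2.11 to 3.57 CPM, so that TEML1_1ox was lower than all the other CH2 libraries. In edgeR, TEML1_2ox was higher by 1.84 ± 0.28 (SE) on the log2 scale, with an adjusted p of 0.0486. With the replicate number as a block neither gene passed, at adjusted p of 0.0858 and 0.0936 in edgeR. Neither passed in edgeR without WT replicate 1, WT replicate 2, TEML1_1ox replicate 1 or TEML1_2ox replicate 1, with adjusted p from 0.0674 to 0.209 for the first gene. PtXaAlbH.17G106100.v5.1 also missed without TEML1_1ox replicate 2, TEML2_1ox replicate 2 or either TEML2_2ox replicate, with adjusted p from 0.0501 to 0.471 in edgeR over these 8 libraries.

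**Figure D5:**
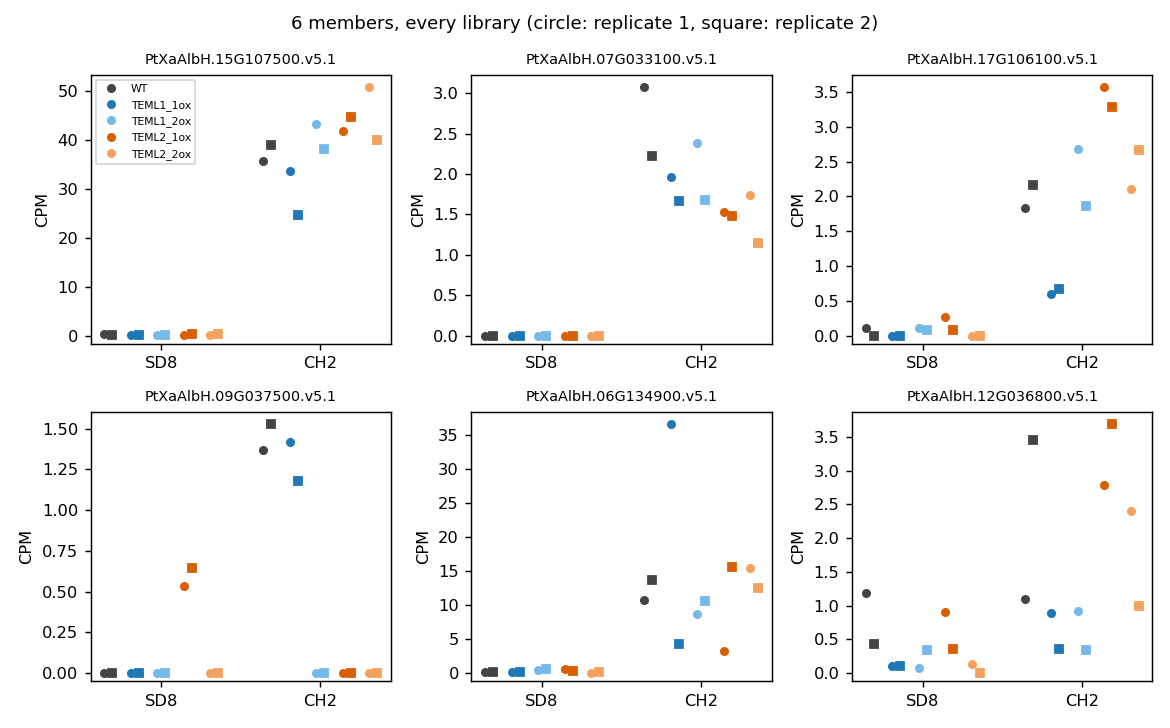
CPM of 6 of the genes in all 20 libraries, SD8 at the left and CH2 at the right of each panel, coloured by genotype, with circles for replicate 1 and squares for replicate 2 and an axis of its own in each panel. PtXaAlbH.15G107500.v5.1 and PtXaAlbH.07G033100.v5.1 are higher in every CH2 library, while PtXaAlbH.09G037500.v5.1 is at 0 in 6 of the 10 CH2 libraries.

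Between the lines of TEML2ox at CH2, 0 of the 148 genes tested passed in edgeR, against 0.0662% of all genes tested. At an unadjusted p under 0.05 there were 9 genes, or 6.08%, beside 6.85% of all genes. DESeq2 and limma-voom called 0 of the set, against 0.315% and 0.0623% of all genes. The smallest adjusted p, 0.401 in edgeR, was that of PtXaAlbH.06G087600.v5.1, with 0.233 and 0.585 CPM in TEML2_1ox and 1.43 and 1.22 CPM in TEML2_2ox. Its lines did not overlap, and the log2 fold change of TEML2_2ox over TEML2_1ox was 1.66 ± 0.42 (SE). TEML1_1ox had the highest values of this gene, 2.70 and 2.13 CPM.

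Before cold, 58 of the 150 genes had enough counts to be tested and 92 did not. Those 58 are the better-counted genes at SD8 and do not stand for the whole set. For TEML1ox against WT 0 of them passed in edgeR, against 0% of the 26947 genes tested, and for TEML2ox against WT 0 passed, against 0% as well. At an unadjusted p under 0.05 there were 3 genes for TEML1ox, or 5.17%, beside 7.32% of all genes, and 5 for TEML2ox, or 8.62%, beside 10.8%. DESeq2 called 0 of the set in both, against 0.264% of all genes for TEML1ox and 0.776% for TEML2ox, and limma-voom called 0 of all genes. With the 5 genotypes fitted as separate groups, 0 of the set passed in both, against 0.271% of all genes for TEML1ox and 4.25% for TEML2ox. The median log2 fold change over the 58 was -0.11 for TEML1ox and -0.26 for TEML2ox, beside 0.00 and 0.00 over all genes tested. Both comparisons share the 2 WT libraries.

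For TEML1ox the smallest adjusted p, 0.673 in edgeR, was shared by PtXaAlbH.14G105400.v5.1, PtXaAlbH.01G038800.v5.1 and PtXaAlbH.11G044100.v5.1. Of these, PtXaAlbH.14G105400.v5.1 had the smallest unadjusted p. It had 19 and 21 counts in WT, 5 and 3 in TEML1_1ox and 0 in both TEML1_2ox libraries at SD8. WT was higher than all 4 TEML1ox libraries, with a log2 fold change of -3.20 ± 0.92 (SE). Outside WT, only TEML2_2ox replicate 2 had a count high enough for the low-count filter, at 16. The gene would not have been tested without the WT counts, so its contrast with WT is not read as a difference. At CH2 the genotypes overlapped, at 2.49 to 2.84 CPM in WT and 1.86 to 2.57 CPM in TEML1ox.

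For TEML2ox the smallest adjusted p, 0.459 in edgeR, was that of PtXaAlbH.18G038500.v5.1. It had 0.656 and 0.595 CPM in WT and 0.372, 0.307, 0.258 and 0.231 CPM in the 4 TEML2ox libraries. WT was higher than all 4, and the log2 fold change was -1.07 ± 0.43 (SE).

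Between the lines of TEML1ox at SD8, 0 of the 58 genes passed in edgeR, against 0.0223% of all genes tested. At an unadjusted p under 0.05 there were 5 genes, or 8.62%, beside 9.99% of all genes. DESeq2 and limma-voom called 0 of the set, against 1.35% and 0.0111% of all genes. The smallest adjusted p, 0.426 in edgeR, was again that of PtXaAlbH.14G105400.v5.1.

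Between the lines of TEML2ox at SD8, 5 of the 58 genes passed in edgeR, 1 higher and 4 lower in TEML2_2ox. Of all genes tested 20.3% passed, and at an unadjusted p under 0.05 there were 10 genes of the set, or 17.2%, beside 35.3%. DESeq2 and limma-voom also called 5 each, against 21.2% and 21.1% of all genes. The set was chosen for low SD8 counts, so these shares do not have like power and were not compared. The 20.3% itself fell to 9.20% without TEML2_1ox replicate 1, 6.41% without TEML2_1ox replicate 2, 4.36% without TEML2_2ox replicate 1 and 8.37% without TEML2_2ox replicate 2. PtXaAlbH.09G037500.v5.1 had 20 and 23 counts in TEML2_1ox and 0 in both TEML2_2ox libraries, as in all other SD8 libraries. It had enough counts to be tested only through TEML2_1ox, so its call is not read as a difference. PtXaAlbH.04G151100.v5.1 had 15 and 15 counts in TEML2_1ox and 2 and 0 in TEML2_2ox, a log2 fold change of -3.94 ± 1.03 (SE) with an adjusted p of 0.0226 in edgeR. In both genes the lines did not overlap.

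PtXaAlbH.01G185300.v5.1 went the other way, with 0 counts in both TEML2_1ox libraries and 4 and 14 in TEML2_2ox. Its mean in TEML2_2ox was at least 5.66-fold higher than the floor of 3 counts over TEML2_1ox, with an adjusted p of 0.0368 in edgeR. The other 2 called genes were PtXaAlbH.06G134900.v5.1, with 21 and 12 counts against 0 and 4, and PtXaAlbH.12G036800.v5.1, with 34 and 13 against 5 and 0. Their log2 fold changes were -3.15 ± 0.89 and -3.35 ± 1.06 (SE), with adjusted p of 0.0306 and 0.0466 in edgeR. Both of these genes were named for this comparison after their values were seen. With the replicate number as a block 3 of the 5 passed, and PtXaAlbH.01G185300.v5.1 and PtXaAlbH.12G036800.v5.1 did not, at adjusted p of 0.0515 and 0.0538 in edgeR. Without TEML2_1ox replicate 1, TEML2_1ox replicate 2 or TEML2_2ox replicate 1 none of the 5 passed. Without TEML2_2ox replicate 2 PtXaAlbH.06G134900.v5.1 alone passed, at an adjusted p of 0.0369 in edgeR. Over these 4 fits the genes that missed had adjusted p in edgeR from 0.0676 to 0.2295, the highest in PtXaAlbH.12G036800.v5.1. PtXaAlbH.01G185300.v5.1, PtXaAlbH.06G134900.v5.1 and PtXaAlbH.12G036800.v5.1 also missed without either TEML1_1ox replicate, at adjusted p from 0.0501 to 0.0675 in edgeR. PtXaAlbH.12G036800.v5.1 also missed without WT replicate 1 (adjusted p = 0.0517) and without the low-count filter (0.0546) in edgeR, and in limma-voom (0.0537).

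At CH2 none of these 5 genes passed the test between the TEML2ox lines. PtXaAlbH.04G151100.v5.1 had 1.01 and 1.88 CPM in TEML2_1ox and 1.07 and 0.889 CPM in TEML2_2ox, and PtXaAlbH.01G185300.v5.1 had 0.518 and 1.53 CPM against 1.69 and 1.25 CPM. In both genes the lines overlapped. Whether the difference between the lines itself changed from SD8 to CH2 was not tested.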

How the data were processed

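Polyadenylated RNA of apical buds was measured in 20 libraries of 10 groups. The authors deposited whole-number counts of reads for 31823 genes, with SD8 and CH2 in separate tables. HISAT2 is named, with no version, per the submitters' processing notes. For the counting program, genome build, use of strand and filters the sources used here state nothing, so counts of near-identical copies, overlapping genes and antisense genes may mix or lose reads. The column of WT replicate 1 at SD8 carries an extra digit in its name and matched no other sample, per the labels. The labels give 6 or 4 weeks of long days before short days, and pool 3 buds or 2 plants in a replicate. Replicates are biological, per the labels.

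CPM was count over library total. Tests used edgeR 4.0.16 in R 4.3.3 with filterByExpr, TMM scaling, the quasi-likelihood F test and Benjamini-Hochberg adjustment over all genes tested at 0.05. The 10 libraries of a harvest were fitted as TEML1ox, TEML2ox and WT (n = 4, 4 and 2) for constructs and as 5 genotypes for lines. In the fits of constructs, both libraries of a line count as independent. The SE, |log2 fold change| divided by √F, is approximate. All 150 genes are given by their CPM whether tested or not. Levels are not length-corrected and were not compared as molar amounts. Alternatives were RLE scaling, DESeq2 1.42.0 (independent filtering off), limma-voom (limma 3.58.1), no low-count filter, a block for the replicate number, leaving out each library, and, for constructs, the fit of 5 genotypes. Tables and plots used Python 3.11.15.

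Replicates were compared by chi-square over genes with at least 20 counts. Divided by its degrees of freedom it was 6.75 to 29.6, far over sampling noise, and every library was counted separately. The genes and all lists were chosen with earlier results of these data known. Named genes were the 2 highest at CH2, the 2 highest with 0 counts at SD8, and per test up to 2 called in each direction, or the one with the smallest adjusted p. Gene family and cell type lists match on names and were void. Library totals set the precision, and floors cover counting error only.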

Additional observations from a re-analysis of the deposited data

Results flagged for a closer look

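Among 61 groups of 4 libraries of a construct, 7 held a library far from the other 3, by a criterion that chance meets in about 1 in 20 groups. At SD8, PtXaAlbH.12G036800.v5.1 had 0.335 CPM in TEML1_2ox replicate 2, against 0.0802 to 0.106 CPM in the other TEML1ox libraries. PtXaAlbH.06G087600.v5.1 had 0.0529 CPM in TEML1_1ox replicate 1 at SD8 and 0 in the other 3, which rests on 2 counts. At CH2, PtXaAlbH.18G038500.v5.1 had 3.15 CPM in TEML2_1ox replicate 2, against 2.29 to 2.43 CPM in the other TEML2ox libraries.

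The other 4 came from a pair of neighbouring genes with nearly the same counts. PtXaAlbH.06G082000.v5.1 had 4.41 CPM in TEML1_1ox replicate 1 at CH2, against 0 to 0.105 CPM in the other TEML1ox libraries, and 0.235 CPM in TEML2_2ox replicate 1, against 0.0509 to 0.0762 CPM in the other TEML2ox libraries. PtXaAlbH.06G082100.v5.1 had 3.89 CPM and 0.208 CPM in the same libraries, against 0 to 0.0786 CPM and 0.0508 to 0.0518 CPM. Their counts correlated at r above 0.98 over the CH2 libraries, so they are not independent.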

How the results depend on the processing

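Replicate numbers are shared across lines. Deviations of same-numbered libraries correlated at -0.25 to 0.27, with both signs and over 0.1 in 4 of 20 pairs of groups. No pairing common to all lines was seen, and whether some lines shared handling was not tested. With the replicate number as a block, the TEML1ox lines at CH2 had 0 called genes in place of 2 (0.0272% of all genes in place of 0.0778%) and the TEML2ox lines at SD8 had 3 in place of 5 (18.5% in place of 20.3%); the other 5 counts of called genes stayed at 0. For TEML1ox against TEML2ox at CH2, DESeq2 and the fit of 5 genotypes called 1 in place of 0 (1.48% and 0.774% of all genes in place of 0.101%). For the TEML1ox lines at CH2, DESeq2 called 4 (1.63% of all genes), limma-voom 1 (0.0662%), and a fit without TEML1_1ox replicate 2 and TEML2_1ox replicate 1, added after seeing the data, called 7 (1.25%), so calls over all genes rose by more than those of the set under DESeq2 and that fit. Leaving out each library gave 0 to 1, 0 to 4 and 0 called genes for the 3 comparisons at CH2, in the order given in the report, and 0, 0, 0 and 0 to 6 for the 4 at SD8. The TEML1ox line count at CH2 was 0 without either WT replicate, TEML1_1ox replicate 1 or TEML1_2ox replicate 1, 1 without TEML2_1ox replicate 2 or either TEML2_2ox replicate, and 4 without TEML1_1ox replicate 2. The TEML2ox line count at SD8 was 3 without either TEML1_1ox replicate, 1 without either TEML2_1ox replicate or TEML2_2ox replicate 2, and 0 without TEML2_2ox replicate 1. Where a line was left with 1 library, that library was assumed to vary like the others. No named gene changed direction. The ratio of summed CPM, with alternatives added after seeing the data, was 17.0 under TMM, 10.6 without the 3 highest genes and 13.7 to 14.4 with a library left out. Genes meeting the conditions numbered 615 to 797 with a library left out and 789 without the overlap condition. With 8-fold in place of 4-fold 89 of the 150 remained, with 0.25 CPM in place of 0.5 CPM 120 remained, and under TMM scaling 148 met the conditions, of which 122 were among the 150 highest. Without the overlap condition 135 were among the 150 highest. The causes were not tested. Depth limits SD8 values most, since 92 of the 150 were too low to test there.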
